A study of Homo sapiens with 70 samples.

Results

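Translation initiation factors (eIFs), translation elongation factors (eEFs) and the kinases that phosphorylate eIF2 were followed through the drug responses of Hep3B and Huh7, which are established human hepatocellular carcinoma lines. Members were all genes whose symbol begins with EIF1 to EIF6, EEF1 or EEF2, read from the transcript that the authors marked as representative of each gene. This gave 70 genes of the 20090 gene symbols in the authors' 6 deposited tables of edgeR comparisons. Cells were treated for 24 h with the vehicle DMSO, with 5 µM GW3965, an agonist of the liver X receptors (LXR), with 2 µM sorafenib, which inhibits RAF and a number of receptor tyrosine kinases, or with both drugs at these doses. Poly-A RNA was sequenced in 70 libraries. Each Hep3B group had 9, the Huh7 groups labelled sorafenib and combination also had 9 each, and Huh7 with DMSO and the Huh7 group labelled GW3965 had 8 each. Each table sets a drug group against the DMSO group of its line, so the 3 tables of a line share their DMSO libraries.

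The Huh7 groups with a single drug go against their labels. ABCG1, an LXR target, had a log2 fold change of 5.99 in the authors' deposited table for Hep3B with GW3965, 0.75 in the Huh7 table labelled GW3965 and 3.82 in the Huh7 table labelled sorafenib. DUSP6, which follows signalling through RAF and ERK, stood at -1.70 in the authors' deposited table labelled GW3965 for Huh7 and at -0.02 in the one labelled sorafenib. These groups are therefore called by their labels throughout, and no direction below is credited to a drug in them. Hepatocyte lineage markers were present in every table (mean CPM, library-scaled counts, of 1713 to 9007 for ALB and 152 to 172 for HNF4A in the authors' deposited tables). Of the markers of other cells, PTPRC reached at most 0.482 CPM and PECAM1 at most 0.886 CPM, COL1A1 lay between 0.619 and 16.4 CPM, and CD68 between 2.66 and 13.02 CPM. These markers also moved with both drugs. TTR (-1.89 in Hep3B and -1.59 in Huh7), AFP (-1.79 and -1.16), APOB (-1.79 and -0.84) and SERPINA1 (-0.51 and -0.65) were lower in the authors' deposited tables at an edgeR FDR under 0.05. ALB was lower in Hep3B (-0.44, edgeR FDR = 0.0104) and not called in Huh7 (-0.15), and HNF4A was called in neither line, in the authors' deposited tables. In Huh7 with both drugs, PECAM1 (-1.76) was lower and COL1A1 (0.99) and CD68 (0.80) were higher in the authors' deposited table, while none of the 4 markers of other cells was called in Hep3B. Their part in the members' changes was not tested. No single library was analysed here, so depth is unknown and no SD can be given, and the authors' p-value is the measure of error. Whether a group's libraries were separate cultures is not stated in the labels, so the p-values measure a spread that may be technical. CPM is a share of the RNA sequenced, so a fall in a gene and a rise in the other RNA of the cells cannot be told apart, and neither protein nor translation was measured.

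Translation begins when eIF2, loaded with GTP and the initiator methionine tRNA, joins the small ribosomal subunit together with eIF1, eIF1A, eIF3 and eIF5, and eIF2B then exchanges the GDP on spent eIF2 for GTP. The kinases EIF2AK1 (HRI), EIF2AK2 (PKR), EIF2AK3 (PERK) and EIF2AK4 (GCN2) phosphorylate the alpha subunit of eIF2 under stress, which blocks eIF2B, lowers bulk translation and favours messages such as that of ATF4. The cap complex eIF4F, made of eIF4E, eIF4G and eIF4A, recruits the message, and 4E-binding proteins hold eIF4E back until mTORC1 phosphorylates them. eEF1A then brings aminoacyl-tRNA to the ribosome and eEF2 moves the ribosome along. Many messages for ribosomal proteins and translation factors start with a C and a run of pyrimidines, the TOP motif, through which mTORC1 and LARP1 control their use.

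Calls on members followed the breadth of each response. At the authors' FDR under 0.05, 2 of 70 members were called in the authors' deposited table for Hep3B with GW3965, where 6.79% of all genes were called (4.51% higher and 2.28% lower), and both were higher. At an unadjusted edgeR p under 0.05, 13 members were higher there and 0 lower. Sorafenib in Hep3B gave 36 called members, 22 higher and 14 lower, against 34.7% of all genes (17.3% higher and 17.4% lower). Both drugs in Hep3B gave 50, of which 36 were higher and 14 lower, against 49.6% of all genes (26% higher and 23.6% lower). The Huh7 table labelled GW3965 held 21 called members, 4 higher and 17 lower, against 20.4% of all genes (9.13% higher and 11.3% lower). The Huh7 table labelled sorafenib held 1 member, which was higher, against 2.05% of all genes (1.25% higher and 0.796% lower). At an unadjusted edgeR p under 0.05 it held 1 higher and 3 lower. Both drugs in Huh7 gave 38, of which 27 were higher and 11 lower, against 41.6% of all genes (24.3% higher and 17.3% lower). Most members are well expressed, and 63 of 70 had a mean of at least 2 CPM in at least 1 table. Among genes at that level in the table concerned, the members' shares were 3.23% against 11.2% with GW3965 in Hep3B, 57.1% against 51.5% with sorafenib in Hep3B, 79.4% against 72.1% with both drugs in Hep3B, 33.9% against 31.4% in the Huh7 table labelled GW3965, 1.61% against 3.32% in the one labelled sorafenib and 58.1% against 61.7% with both drugs in Huh7. Apart from the smaller share with GW3965 in Hep3B, these shares lay near the background. What follows is about which members moved and in which direction.

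**Figure D1:**
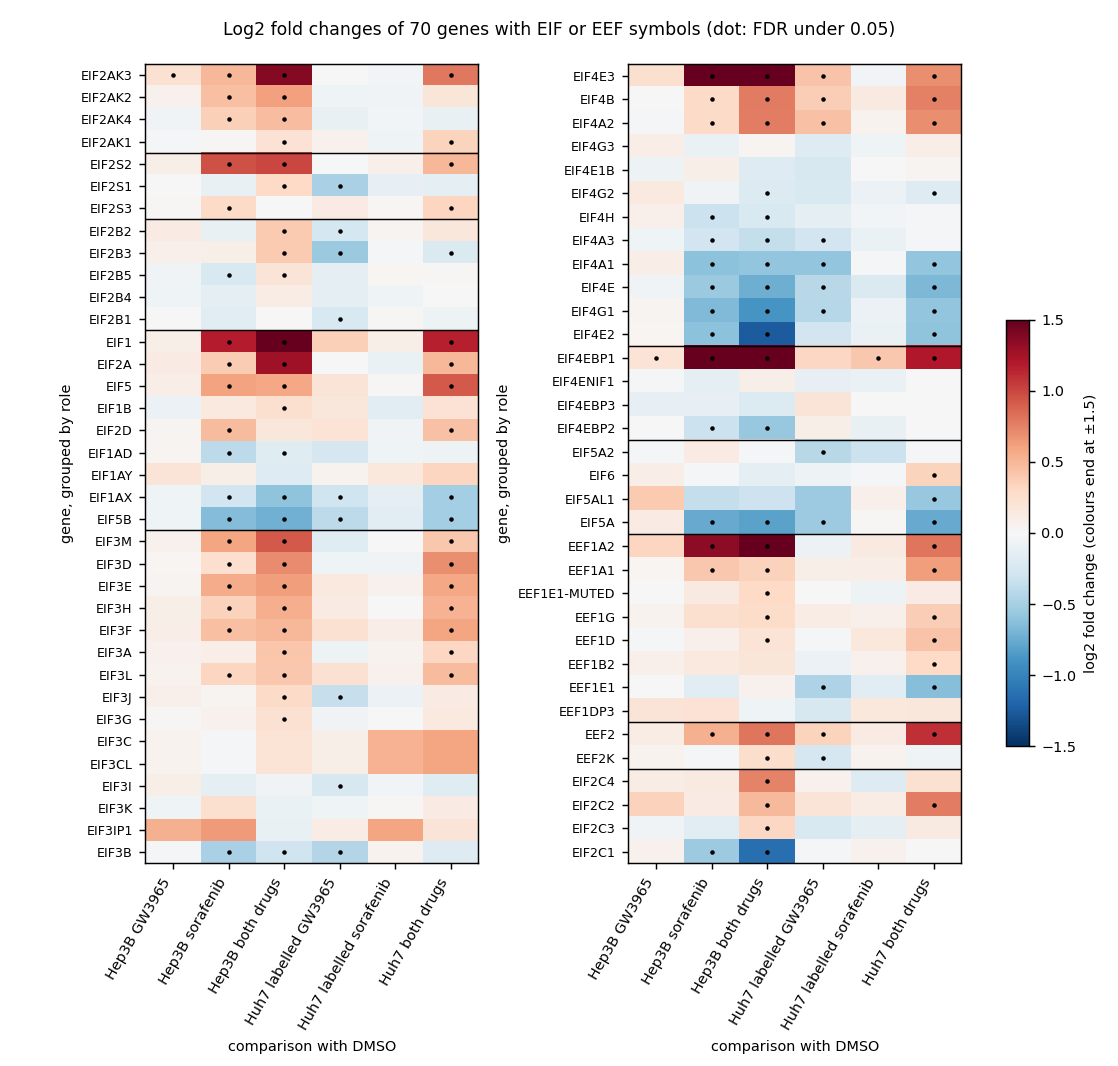
Log2 fold changes against DMSO of the 70 genes (rows, grouped by role, names on the vertical axis) in the authors' 6 deposited comparisons (columns, on the horizontal axis), with a dot where the FDR is under 0.05. Colours end at a log2 fold change of 1.5 in size, red being higher and blue lower. EIF4EBP1 carries a dot in 5 of the 6 columns, and the rows of EIF4A1, EIF4E, EIF4G1 and EIF5A are blue where those of EIF4A2 and EIF4B are red.

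In all, 59 members were called in at least 1 comparison and 11 in none. The 11 were EIF2B4, EIF3K, EIF4G3, EIF4EBP3, EIF4ENIF1 and the rows EEF1DP3, EIF1AY, EIF3C, EIF3CL, EIF3IP1 and EIF4E1B, which had less than 2 CPM in all tables. EIF5AL1, a copy of EIF5A, also lay under 2 CPM in every table. EIF3C and EIF3CL are near-identical copies that carried the same values in the authors' deposited tables, so nothing can be said of either. EEF1DP3 and EIF3IP1 are pseudogenes, and EEF1E1-MUTED is a readthrough of EEF1E1 and its neighbour. EIF2C1 to EIF2C4 are older symbols of the Argonaute genes, which act in RNA silencing and not in initiation.

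The starts of the messages are shown first, because the directions of the members are set beside them further on. RefSeq promoter windows (build GRCh38.p14) were found for 52 of the 70 members, and 12 of the 52 (23.1%) have an annotated start at which a C is followed by at least 4 more pyrimidines. Such a start was present in 4.07% of the 35116 starts of that table and in 7.65% of the 8356 matched genes at a mean of at least 2 CPM. Each window below runs 5′ to 3′ from 10 bases before to 20 bases from the annotated start, and capitals mark the pyrimidine run that begins at the start. The first 8 carry such a run and the last 4, all members that fell in both lines with both drugs, do not. Members without such a run also rose in both lines with both drugs, among them EIF1, EIF5, EIF2AK3 and EIF4E3, whose windows are not shown.
EEF1A1, chr6:73521013-73521042, minus strand: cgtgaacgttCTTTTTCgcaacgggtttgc
EEF2, chr19:3985444-3985473, minus strand: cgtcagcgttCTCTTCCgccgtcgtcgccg
EIF2A, chr3:150546777-150546806, plus strand: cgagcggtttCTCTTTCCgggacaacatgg
EIF3D, chr22:36529147-36529176, minus strand: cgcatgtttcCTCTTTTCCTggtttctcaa
EIF3F, chr11:7987327-7987356, plus strand: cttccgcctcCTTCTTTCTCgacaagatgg
EIF3K, chr19:38619178-38619207, plus strand: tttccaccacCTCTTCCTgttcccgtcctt
EIF4A2, chr3:186783567-186783596, plus strand: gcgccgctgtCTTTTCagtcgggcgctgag
EIF4B, chr12:53006446-53006475, plus strand: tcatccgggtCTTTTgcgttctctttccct
EIF4A1, chr17:7572815-7572844, plus strand: ggcactccgccctagtttctaaggatcatg
EIF4E, chr4:98929114-98929143, minus strand: tggagcggttgtgcgatcagatcgatctaa
EIF5B, chr2:99337379-99337408, plus strand: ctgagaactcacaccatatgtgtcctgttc
EIF1AX, chrX:20141819-20141848, minus strand: gagtcgcggcgccatttgctgccgccgagc
The other members with such a start are EEF1B2, EIF2D, EIF2S3 and EIF3M. The paralogues EIF4A1 and EIF4A2, which encode closely related helicases of eIF4F, fall on opposite sides. The starts are annotations, and which start these cells used was not measured.

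All 4 eIF2 kinases rose in Hep3B with both drugs, and EIF2AK3 rose most. There 72.1% of all genes at 2 CPM or more were called. In Huh7 with both drugs this share was 61.7%, and 2 of the 4 kinases were called. The level of EIF2AK3, the kinase that senses unfolded protein in the endoplasmic reticulum, was 20.1 CPM in Hep3B with DMSO, 22.8 with GW3965, 28.9 with sorafenib and 53.2 with both drugs, as implied by the authors' deposited tables. Each drug group was above DMSO and the group with both drugs stood highest. Its log2 fold change in the authors' deposited tables was 0.23 with GW3965 (edgeR FDR = 0.0029), 0.50 with sorafenib (FDR = 0.000614) and 1.38 with both (FDR = 1.24e-67), the last a 2.60-fold rise. In Huh7 it stood at 33.8 CPM with DMSO, 34.01 and 32.8 in the groups labelled GW3965 and sorafenib, and 57.8 with both drugs, as implied by the authors' deposited tables. The log2 fold change with both drugs in Huh7 was 0.79 (edgeR FDR = 1.18e-15), while -0.00 and -0.05 in the Huh7 tables labelled GW3965 and sorafenib did not pass, all in the authors' deposited tables.

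EIF2AK2, the kinase activated by double-stranded RNA, rose by 0.45 with sorafenib and 0.61 with both drugs in the authors' deposited tables for Hep3B. EIF2AK4, which senses uncharged tRNA, rose there by 0.35 and 0.46. In Huh7 with both drugs neither was called, at 0.18 and -0.11 in the authors' deposited table (edgeR FDR = 0.154 and 0.402). EIF2AK1, the heme-regulated and mitochondrial stress kinase, was the only kinase called in both lines besides EIF2AK3, at 0.21 in Hep3B and 0.34 in Huh7 with both drugs in the authors' deposited tables. It was not called with either drug alone in Hep3B, at -0.01 and 0.02 in the authors' deposited tables.

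Of the 3 subunits of eIF2, 2 were called higher in each of Hep3B with sorafenib, Hep3B with both drugs and Huh7 with both drugs, in the authors' deposited tables. Among all genes at 2 CPM or more, 51.5%, 72.1% and 61.7% were called in these comparisons, in either direction. EIF2S2, the beta subunit, rose in Hep3B with sorafenib and with both drugs, with implied levels of 45.8 CPM in DMSO, 46.9 in GW3965, 90.1 in sorafenib and 93.6 in both. Its log2 fold changes in the authors' deposited tables were 0.95 and 1.00 (edgeR FDR = 1.97e-13 and 4.91e-31), and 0.50 with both drugs in Huh7 (FDR = 3.3e-10). EIF2S1, the alpha subunit that the kinases phosphorylate, was called higher in Hep3B with both drugs (0.30) and lower in the Huh7 table labelled GW3965 (-0.48), in the authors' deposited tables. EIF2S3, the gamma subunit, was higher with sorafenib in Hep3B (0.29) and with both drugs in Huh7 (0.32), but stood at 0.01 with both drugs in Hep3B, in the authors' deposited tables.

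Subunits of the exchange factor eIF2B were higher in Hep3B with both drugs and lower in the Huh7 table labelled GW3965. Each of these comparisons called 3 of the 5 subunits, and 72.1% and 31.4% of all genes at 2 CPM or more. With both drugs in Hep3B, EIF2B2 rose by 0.40, EIF2B3 by 0.39 and EIF2B5 by 0.19, and none of the 5 subunits fell, in the authors' deposited table. In the Huh7 table labelled GW3965, EIF2B1 (-0.23), EIF2B2 (-0.26) and EIF2B3 (-0.56) were lower and none was higher, in the authors' deposited table. EIF2B3 was also lower in Huh7 with both drugs, at -0.22 (edgeR FDR = 0.0447), and was the only member called higher in one line and lower in the other with both drugs, in the authors' deposited tables. Its implied levels were 10.3 CPM in DMSO and 13.7 in both drugs for Hep3B, and 21.1 and 17.8 for Huh7. EIF2B5 was lower with sorafenib alone in Hep3B, at -0.22 in the authors' deposited table. EIF2B4 was called nowhere.

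Among the 9 factors of initiator tRNA and start codon choice, 4 were higher and 3 lower with both drugs in Hep3B, and 4 were higher and 2 lower in Huh7, in the authors' deposited tables. At 2 CPM or more, 87.5% of these factors were called in Hep3B and 75% in Huh7, against 72.1% and 61.7% of all genes. EIF1, the guardian of start codon choice, went in Hep3B from 199 CPM in DMSO and 204 in GW3965 to 461 in sorafenib and 633 in both drugs, as implied by the authors' deposited tables. The corresponding log2 fold changes in the authors' deposited tables were 0.08, 1.18 (edgeR FDR = 2.31e-27) and 1.64 (FDR = 7.09e-64). In Huh7 it went from 196 CPM in DMSO to 438 in both drugs, at 1.17 on the log2 scale (edgeR FDR = 1.24e-69) in the authors' deposited table. The Huh7 table labelled GW3965 gave 0.35 for EIF1 and missed the threshold (edgeR FDR = 0.0616) in the authors' deposited tables.

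EIF5, which makes eIF2 hydrolyse its GTP at the start codon, rose by 0.61 with sorafenib and 0.58 with both drugs in Hep3B, and by 0.92 with both drugs in Huh7, in the authors' deposited tables. EIF2A, a factor described as able to deliver initiator tRNA without eIF2, rose in Hep3B by 0.39 with sorafenib and by 1.27 with both drugs (edgeR FDR = 4.76e-61) in the authors' deposited tables. Its implied level there was 46.3 CPM in DMSO, 48.6 in GW3965, 61.6 in sorafenib and 113 in both, so that the group with both drugs stood well above the other 3. In Huh7 it rose by 0.50 with both drugs in the authors' deposited table. EIF2D, another factor that can place tRNA on the ribosome, was called higher with sorafenib in Hep3B (0.47) and with both drugs in Huh7 (0.44), and missed the threshold with both drugs in Hep3B (0.17, edgeR FDR = 0.0902), in the authors' deposited tables.

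EIF5B, the GTPase that joins the ribosomal subunits, fell in Hep3B with sorafenib (-0.65) and both drugs (-0.72), in Huh7 with both drugs (-0.51) and in the Huh7 table labelled GW3965 (-0.39), in the authors' deposited tables. EIF1AX, which encodes the eIF1A that works beside eIF1 and eIF5B, gave -0.29, -0.60, -0.51 and -0.30 in the same order, all called, in the authors' deposited tables. Neither has a pyrimidine start in the windows above. EIF1AD, a gene with an eIF1A-like domain, was lower in Hep3B with sorafenib (-0.40) and both drugs (-0.19), and EIF1B, a close relative of EIF1, was higher with both (0.23), in the authors' deposited tables.

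Subunits of eIF3, the scaffold of the initiation complex, were called higher more often than lower with both drugs. Of 15 rows, 12 were at 2 CPM or more, and with both drugs 9 rose and 1 fell in Hep3B while 7 rose and 0 fell in Huh7, in the authors' deposited tables. At an unadjusted edgeR p under 0.05 the Huh7 counts were 9 and 2. The authors' FDR called 83.3% of the 12 in Hep3B and 58.3% in Huh7 with both drugs. Among all genes at 2 CPM or more these shares were 72.1% and 61.7%. EIF3D, EIF3E, EIF3F, EIF3H, EIF3L, EIF3M and EIF3A were called higher in both lines. EIF3D, a subunit that can bind the cap itself, went from 103 to 171 CPM in Hep3B and from 102 to 164 CPM in Huh7 between DMSO and both drugs, as implied by the authors' deposited tables. Its log2 fold changes in the authors' deposited tables were 0.71 in Hep3B (edgeR FDR = 2.24e-24) and 0.70 in Huh7 (FDR = 2.56e-19). EIF3M gave 0.92 and 0.41, EIF3E 0.63 and 0.59, EIF3H 0.55 and 0.52, and EIF3F 0.50 and 0.59, in Hep3B and Huh7 with both drugs in the authors' deposited tables. These changes were small in size. The same subunits except EIF3A were also higher with sorafenib alone in Hep3B, by 0.26 to 0.59 in the authors' deposited table.

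EIF3B, a core subunit, went the other way, at -0.49 with sorafenib and -0.30 with both drugs in Hep3B and -0.44 in the Huh7 table labelled GW3965, in the authors' deposited tables. It was not called in Huh7 with both drugs (-0.20, edgeR FDR = 0.0684) in the authors' deposited table. EIF3I and EIF3J were lower in the Huh7 table labelled GW3965 (-0.24 and -0.34), where 0 of the 15 rows rose (2 at an unadjusted edgeR p under 0.05), in the authors' deposited tables. EIF3J and EIF3G were higher with both drugs in Hep3B (0.29 and 0.22) in the authors' deposited table. EIF3K, which has a pyrimidine start, stood at -0.10 in Hep3B and 0.12 in Huh7 with both drugs and was not called.

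The cap-binding complex was divided between genes that fell and genes that rose. EIF4G1, the scaffold of eIF4F, went in Hep3B from 621 CPM in DMSO and 618 in GW3965 to 399 in sorafenib and 341 in both drugs, as implied by the authors' deposited tables. The implied DMSO level ran from 598 to 633 CPM over the tables, so small steps between levels carry no direction. With GW3965 the log2 fold change of EIF4G1 was 0.05, not called, in the authors' deposited table. In Huh7 the implied levels were 687 CPM in DMSO, 516 and 653 in the groups labelled GW3965 and sorafenib, and 446 with both. Log2 fold changes in the authors' deposited tables were -0.66 and -0.89 with sorafenib and both drugs in Hep3B (edgeR FDR = 1.89e-06 and 2.81e-13), and -0.43 and -0.59 in the Huh7 tables labelled GW3965 and combination (FDR = 0.00137 and 5.49e-17). EIF4E, which binds the cap, gave -0.56, -0.73, -0.42 and -0.67 in the same order, and EIF4A1, the main helicase, gave -0.62, -0.59, -0.59 and -0.59, all called, in the authors' deposited tables. The 3 genes EIF4G1, EIF4E and EIF4A1 were thus lower in these 4 tables. None of the 3 was called in Hep3B with GW3965 or in the Huh7 table labelled sorafenib. This does not hold for every gene of a subunit, since the eIF4A gene EIF4A2 was higher in the same 4 tables.

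EIF4A2, the second helicase gene, moved opposite to EIF4A1. Its log2 fold changes in the authors' deposited tables were 0.29 and 0.77 with sorafenib and both drugs in Hep3B, and 0.44 and 0.70 in the Huh7 tables labelled GW3965 and combination, all called. In Hep3B the implied level of EIF4A1 went from 373 CPM in DMSO to 251 with both drugs, while that of EIF4A2 went from 185 to 321. EIF4B, which stimulates the helicase, gave 0.29, 0.78, 0.37 and 0.76 in the same order, all called, in the authors' deposited tables. EIF4H, a relative of EIF4B, was instead lower in Hep3B with sorafenib (-0.32) and both drugs (-0.23), in the authors' deposited tables. EIF4A3, a helicase of the exon junction complex and not of eIF4F, was lower in the same Hep3B groups (-0.29 and -0.36) and in the Huh7 table labelled GW3965 (-0.29), in the authors' deposited tables.

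The cap-binding relatives of EIF4E went in opposite directions. EIF4E2, which can repress capped messages, fell in Hep3B by 0.62 with sorafenib and 1.24 with both drugs (edgeR FDR = 1.01e-50), the latter 2.37-fold lower, and in Huh7 by 0.60 with both drugs, in the authors' deposited tables. EIF4E3, another cap-binding protein, rose in Hep3B by 1.71 with sorafenib and 2.01 with both drugs, and in Huh7 by 0.70 with both drugs and 0.42 in the table labelled GW3965, in the authors' deposited tables. Its implied levels were low, from 1.44 CPM in DMSO to 5.91 with both drugs in Hep3B and from 3.12 to 4.96 in Huh7. EIF4G2, a scaffold without the eIF4E site, was lower with both drugs by 0.21 in Hep3B and 0.19 in Huh7, and EIF4G3 was called nowhere, in the authors' deposited tables.

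EIF4EBP1, the inhibitor of eIF4E that is also a known ATF4 target, was called higher in 5 of the 6 comparisons. Its implied levels in Hep3B were 49.2 CPM in DMSO, 54.5 in GW3965, 163 in sorafenib and 158 in both, so that sorafenib alone and both drugs gave about the same level. In Huh7 they were 67.6 CPM in DMSO, 84.9 and 89.1 in the groups labelled GW3965 and sorafenib, and 155 with both, where the group with both drugs stood above each single group. Log2 fold changes in the authors' deposited tables for Hep3B were 0.20 with GW3965 (edgeR FDR = 0.0201), 1.71 with sorafenib (FDR = 1.02e-58) and 1.65 with both (FDR = 8.54e-103). For Huh7 they were 0.31 in the table labelled GW3965 (edgeR FDR = 0.0524, not called), 0.41 in the table labelled sorafenib (FDR = 0.00134) and 1.21 with both (FDR = 4.46e-54), in the authors' deposited tables. It was the one member called in the Huh7 table labelled sorafenib, and with EIF2AK3 one of the 2 called in Hep3B with GW3965.

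EIF4EBP2, its relative, fell in Hep3B by 0.33 with sorafenib and by 0.57 with both drugs in the authors' deposited tables. In Huh7 with both drugs it stood at 0.01 (edgeR FDR = 1) in the authors' deposited table. EIF4EBP3 lay between 2.50 and 3.09 CPM in the groups, as implied by the authors' deposited tables, and was called nowhere, as was EIF4ENIF1, which carries eIF4E into the nucleus.

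**Figure D2:**
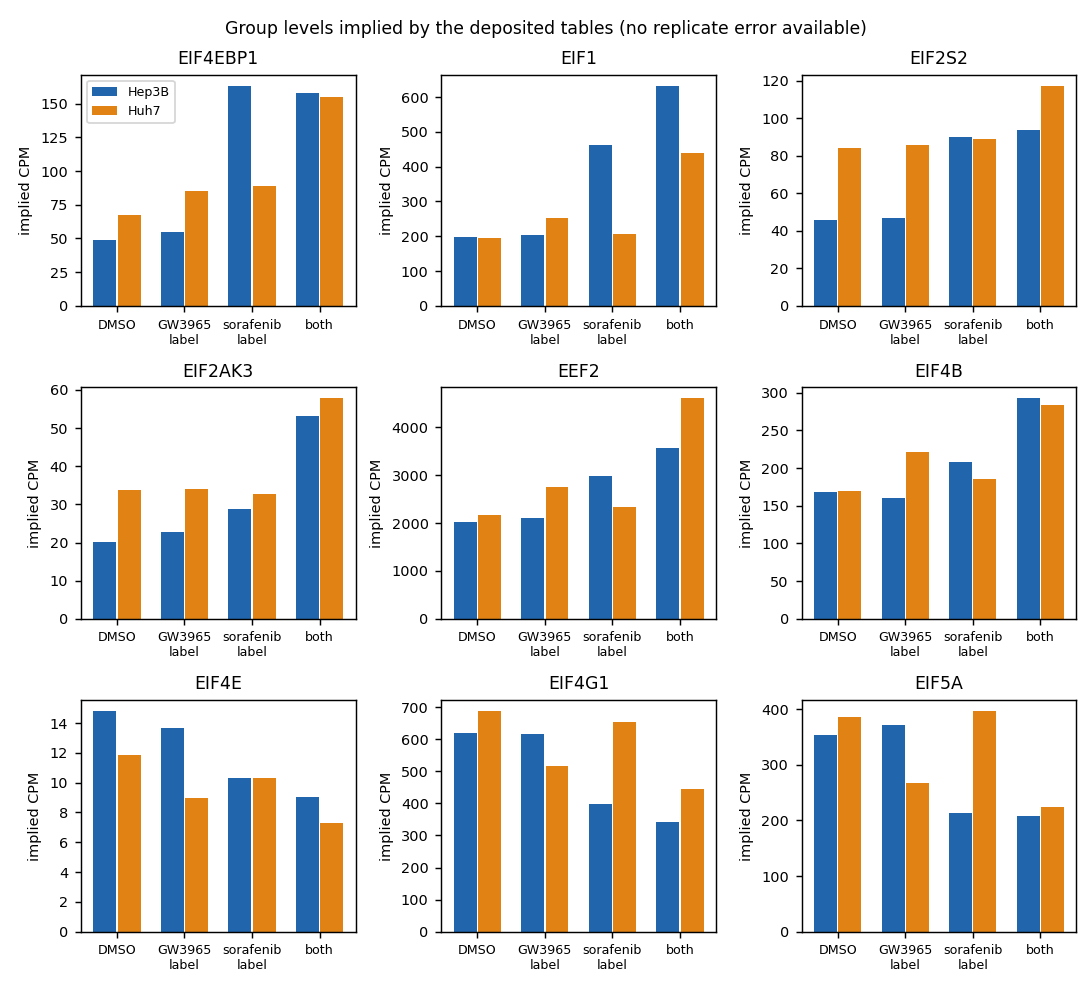
Mean levels of 9 members in CPM (vertical axis, from 0) in the DMSO, labelled GW3965, labelled sorafenib and both-drug groups (horizontal axis) of Hep3B (blue) and Huh7 (orange), implied by the authors' deposited tables, which allow no error bars. EIF4EBP1 reaches 163 CPM with sorafenib and 158 with both drugs in Hep3B, and EIF4G1 and EIF5A are lowest with both drugs in each line.

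EIF5A, which carries the modified residue hypusine and frees stalled ribosomes, fell where EIF4A1 fell. The log2 fold changes in the authors' deposited tables were -0.76 and -0.80 with sorafenib and both drugs in Hep3B (edgeR FDR = 1.28e-10 and 2.32e-24) and -0.55 and -0.75 in the Huh7 tables labelled GW3965 and combination (FDR = 0.000985 and 1.45e-12). Its implied level fell from 354 to 207 CPM in Hep3B and from 387 to 224 CPM in Huh7 between DMSO and both drugs. EIF5AL1, its copy at 0.491 to 1.17 CPM in the groups, was called in Huh7 with both drugs (-0.57, edgeR FDR = 0.0371) in the authors' deposited table, and reads of the 2 genes may not have been separable. EIF5A2, a related gene, was lower in the Huh7 table labelled GW3965 (-0.42) and EIF6, which keeps the large ribosomal subunit apart, was higher in Huh7 with both drugs (0.33), in the authors' deposited tables.

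EEF2 was the elongation factor with the largest rise in Huh7. EEF2, the translocase, went in Hep3B from 2021 CPM in DMSO and 2101 in GW3965 to 2992 in sorafenib and 3574 in both drugs, as implied by the authors' deposited tables. In Huh7 it went from 2162 CPM in DMSO to 2762 and 2337 in the groups labelled GW3965 and sorafenib and 4607 in both. Log2 fold changes in the authors' deposited tables were 0.54 and 0.80 with sorafenib and both drugs in Hep3B (edgeR FDR = 1.02e-06 and 2.56e-27), and 0.34 and 1.10 in the Huh7 tables labelled GW3965 and combination (FDR = 0.0466 and 1.56e-50). EEF2K, the kinase that inactivates eEF2, was higher with both drugs in Hep3B (0.26), lower in the Huh7 table labelled GW3965 (-0.25) and not called with both drugs in Huh7 (-0.06), in the authors' deposited tables.

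Of the 8 rows of the eEF1 complex, 5 rose and 0 fell with both drugs in Hep3B, and 5 rose and 1 fell in Huh7, in the authors' deposited tables. The 5 in Hep3B include the readthrough EEF1E1-MUTED (0.30), and the 1 that fell in Huh7 was EEF1E1. Of the rows at 2 CPM or more, 71.4% were called in Hep3B and 83.3% in Huh7, against 72.1% and 61.7% of all genes at that level. EEF1A1, which delivers aminoacyl-tRNA, rose by 0.35 in Hep3B and by 0.62 in Huh7 with both drugs in the authors' deposited tables. EEF1A2, the form typical of muscle and neurons, rose 4.59-fold in Hep3B with both drugs, from an implied 7.70 CPM in DMSO to 9.35 in GW3965, 19.8 in sorafenib and 35.98 in both. Its log2 fold changes in the authors' deposited tables were 1.34 with sorafenib and 2.20 with both in Hep3B (edgeR FDR = 6.62e-20 and 3.9e-80), and 0.80 in Huh7 with both (FDR = 0.00293), where it rose from 1.01 to only 1.69 CPM. The exchange factor genes EEF1D and EEF1G rose by 0.21 and 0.28 in Hep3B and by 0.43 and 0.37 in Huh7 with both drugs, and EEF1B2 by 0.30 in Huh7, in the authors' deposited tables. EEF1E1, a partner of the aminoacyl-tRNA synthetase complex and not an elongation factor proper, was lower in Huh7 with both drugs (-0.64) and in the table labelled GW3965 (-0.46) but stood at 0.07 in Hep3B with both, in the authors' deposited tables.

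Among the Argonaute genes, EIF2C1 (AGO1) fell in Hep3B by 0.54 with sorafenib and 1.13 with both drugs and stood at 0.01 in Huh7 with both, in the authors' deposited tables. EIF2C2 (AGO2), the slicer, was higher with both drugs in each line (0.48 and 0.77), and EIF2C3 and EIF2C4 were higher in Hep3B with both (0.30 and 0.74), in the authors' deposited tables.

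With both drugs the 2 lines, which share no libraries, were compared member by member. Of the 36 members higher in Hep3B, 23 (63.9%) were also higher in Huh7, which is 85.2% of the 27 higher there. Over all genes these shares were 58.5% and 62.4% in the authors' deposited tables. Of the 14 lower in Hep3B, 8 (57.1%) were lower in Huh7, or 72.7% of the 11 lower there, against 48.7% and 66.5% over all genes. The 8 were EIF1AX, EIF4A1, EIF4E, EIF4E2, EIF4G1, EIF4G2, EIF5A and EIF5B. These shares over all genes include genes under 2 CPM, while most members lie above that level. The part of expression in the gap between members and all genes was not tested. As a description across genes, which do not replicate each other, the log2 fold changes of the 62 members at 2 CPM or more in both tables had Pearson's r of 0.81 and Spearman's rho of 0.81, against 0.68 and 0.64 over 10871 genes. Members of one complex, and the tables of a line, share their libraries.

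**Figure D3:**
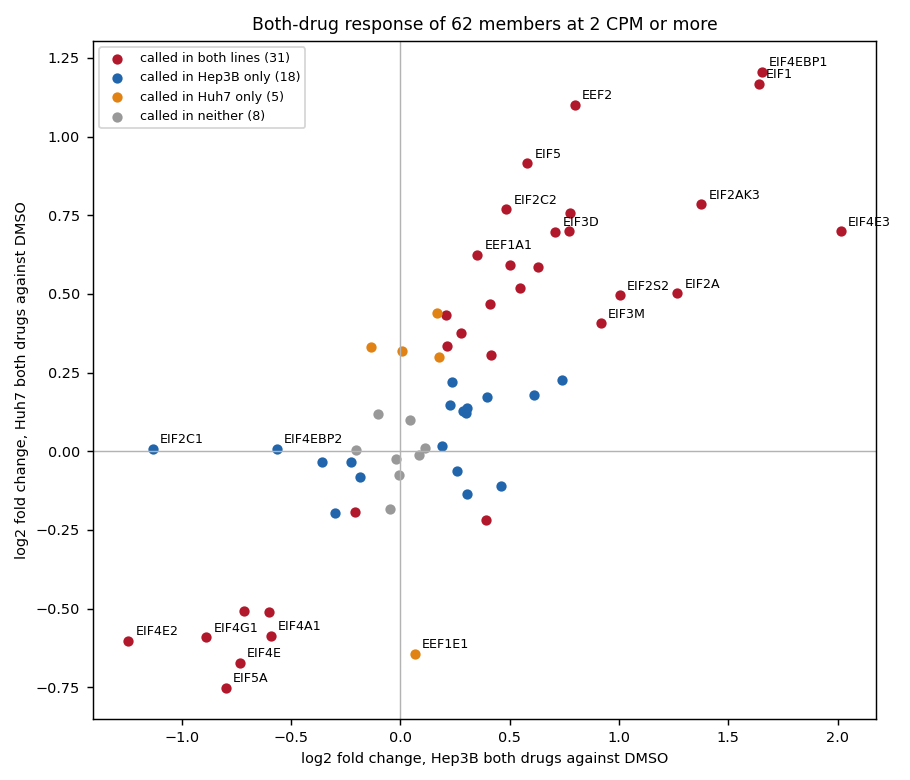
Log2 fold changes with both drugs against DMSO in Hep3B (horizontal axis) and Huh7 (vertical axis) for the 62 members at 2 CPM or more in both of the authors' deposited tables, 1 point per gene, coloured by the lines in which the FDR is under 0.05. Most points lie along a rising line, EIF2B3 is the red point at 0.39 and -0.22, and EIF2C1 and EEF1E1 lie near 0 in one line only.

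The difference between the lines was tested with an approximate test, which divides the difference of 2 deposited log2 fold changes by the root of their summed squared standard errors, derived from the authors' p-values. Of 63 members tested, 15 changed more upward in Hep3B and 9 more downward (adjusted p under 0.05), where 44% of all genes tested differed (17.7% and 26.3%). EEF1A2 differed by 1.40 (approximate SE 0.268, adjusted p = 1.7e-06), EIF4E3 by 1.32 (SE 0.224, adjusted p = 6.48e-08) and EIF2A by 0.76 (SE 0.123, adjusted p = 8.69e-09), all higher in Hep3B by the approximate test. EEF1A2 reached the minimum of 2 CPM, a mean over the 2 tables, only through its level in Hep3B. In Huh7 its implied level was 1.01 CPM with DMSO and 1.69 with both drugs. EIF2AK3 and EIF2AK4 were also more upward in Hep3B, by 0.59 and 0.57 (SE 0.126 and 0.127). In the other direction stood EIF2C1 at -1.14 (SE 0.150), EIF4E2 at -0.64 (SE 0.124), EIF4EBP2 at -0.58 (SE 0.116), EIF6 at -0.47 (SE 0.117) and EIF5 at -0.34 (SE 0.116).

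What the second drug added was asked in the same way, within each line, where the shared DMSO libraries make the test wider than it need be. Hep3B with both drugs against sorafenib alone gave 13 members higher and 2 lower of 63, against 31.1% of all genes tested (16.6% and 14.5%). Subtracting the expressed-gene median of each table turned this split into 11 and 5. EIF2A (0.88, SE 0.131, adjusted p = 1.7e-09 by the approximate test), EIF2AK3 (0.88, SE 0.155) and EEF1A2 (0.85, SE 0.181) were furthest above sorafenib alone, and EIF4E2 (-0.63, SE 0.160) and EIF2C1 (-0.59, SE 0.196) were the 2 below. EIF4EBP1 and EIF5 were not among the 15, and their 95% intervals for this difference ran from -0.31 to 0.20 and from -0.29 to 0.23.

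Hep3B with both drugs against GW3965 alone gave 32 members higher and 14 lower of 63, against 63.8% of all genes (30.7% and 33.2%), led by EEF1A2 (1.87, SE 0.189), EIF4E3 (1.77, SE 0.230) and EIF1 (1.56, SE 0.109) and, below, by EIF4E2 (-1.27, SE 0.104) in the approximate test. Huh7 with both drugs against the group labelled GW3965 gave 20 higher and 0 lower of 62, against 30% of all genes (20.4% and 9.61%), and at an unadjusted p under 0.05 the approximate test gave 27 and 1. EIF4EBP1 (0.90, SE 0.148), EIF1 (0.82, SE 0.166), EIF2AK3 (0.79, SE 0.134), EIF3D (0.77, SE 0.127) and EEF2 (0.77, SE 0.154) led it. Huh7 with both drugs against the group labelled sorafenib gave 25 higher and 8 lower of 62, against 47.1% (29.1% and 18%), with EIF1 (1.08, SE 0.116), EEF2 (0.98, SE 0.110), EIF5 (0.90, SE 0.110) and EIF2AK3 (0.83, SE 0.123) highest and EIF5A (-0.77, SE 0.125) and EIF4A1 (-0.56, SE 0.110) lowest. By the levels implied by the authors' deposited tables, EIF2AK3 with both drugs (53.2 CPM in Hep3B and 57.8 in Huh7) stood above each single-drug group of its line. Its approximate test against GW3965 alone in Hep3B is not given here.

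The directions were then set beside the class of message start. This split was looked for after the members' values had been seen, so it is a description with no test. With sorafenib in Hep3B, 10 of the 12 members with a pyrimidine start were higher and 0 lower (median log2 fold change 0.34), while of the 40 with another start 6 were higher and 13 lower (median -0.12), in the authors' deposited table. For Hep3B with both drugs the counts were 8 and 0 of 12 (median 0.60) against 14 and 13 of 40 (median -0.01), and with both drugs in Huh7 11 and 0 of 12 (median 0.55) against 6 and 11 of 40 (median -0.03), in the authors' deposited tables. In the Huh7 table labelled GW3965 they were 3 and 0 of 12 (median 0.11) against 1 and 17 of 40 (median -0.23), so that the 12 mostly did not pass and the others mostly fell where they passed. At an unadjusted edgeR p under 0.05 the counts of the 12 were 10 and 0, 9 and 0, 11 and 0, and 5 and 1 in the same order. No member with a pyrimidine start was called in Hep3B with GW3965 or in the Huh7 table labelled sorafenib, where 2 and 0 were higher and 0 and 0 lower at that p.

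Over all genes at 2 CPM or more the shares of the classes lay closer together. The members were not held to that minimum, and those with another start include EIF1AY, EIF3C, EIF4E1B and EIF5AL1, which lay under 2 CPM. Of 639 genes with such a start, 42.7% were higher and 19.1% lower in Huh7 with both drugs, against 33.9% and 27.1% of the 7717 other genes, in the authors' deposited table. With sorafenib in Hep3B the shares were 30.2% and 21.3% against 21.6% and 29.6%, and with both drugs in Hep3B 44.4% and 26.6% against 34.6% and 36.9%, in the authors' deposited tables. In the Huh7 table labelled GW3965 they were 13.9% and 12.4% against 12.9% and 18.5%, so the shares called higher differed little there. Members that lack an entry in the RefSeq table include EIF3E, EIF3H, EIF3L, EIF2S2, EIF4EBP1 and EEF1A2, so the class of 18 members is unknown.

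**Figure D4:**
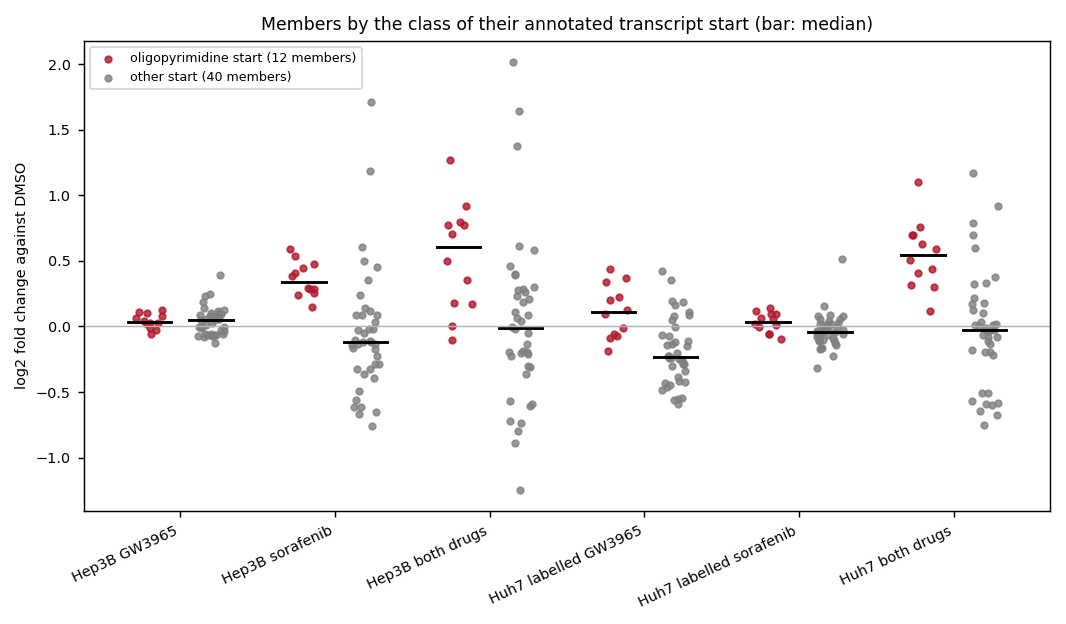
Log2 fold changes against DMSO (vertical axis) in the authors' 6 deposited comparisons (horizontal axis) for the 12 members with an annotated oligopyrimidine start (red) and the 40 with another start (grey), 1 point per gene, with the median as a bar. With both drugs in Huh7 all 12 red points lie above 0, from 0.12 to 1.10, and their median is 0.55 against -0.03 for the others.

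Other motifs were searched in the 300-base windows of the same 52 members, on both strands. The ATF4 response element of the C/EBP-ATF type, searched as TTGCATCA or TTGCGTCA, was found in 0 of 52 against 1.89% of matched genes at 2 CPM or more and 1.38% of all starts of the table. EIF4EBP1 is not among the 52. The E-box CACGTG, the site bound by MYC and related factors and its own reverse complement, was found in 13 of 52 (25%) against 12.997% of matched genes and 7.26% of all starts. EIF4E carries it at 225 and at 72 bases before its annotated start. It is also in EIF4G1, which like EIF4E fell in both lines with both drugs, and in EIF4B and EIF3F, which rose in both. These are matches of letters in one window, not sites shown to be bound.

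Genes around the members were counted from lists of translation control that the symbol rule does not take, each with its higher and lower calls in the authors' deposited tables. Over all genes the shares higher and lower were 17.3% and 17.4% with sorafenib in Hep3B, 26% and 23.6% with both drugs in Hep3B and 24.3% and 17.3% with both drugs in Huh7, and among genes at 2 CPM or more 51.5%, 72.1% and 61.7% were called in either direction. The eIF2 phosphatase subunits, kinase regulators and ATF4 branch (13 genes) gave 9 higher and 2 lower with sorafenib in Hep3B, 11 and 1 with both drugs in Hep3B, and 9 and 2 with both drugs in Huh7. With GW3965 in Hep3B the counts were 4 and 0, and in the Huh7 tables labelled GW3965 and sorafenib 5 and 2 and 3 and 0. PPP1R15A (GADD34), which directs the phosphatase that undoes eIF2 phosphorylation, rose by 1.36 with sorafenib and 2.39 with both drugs in Hep3B and by 2.32 with both in Huh7, in the authors' deposited tables. It stood at 0.06 with GW3965 in Hep3B and was not called there. PPP1R15B, its constitutive relative, rose less, by 0.63 and 0.26 with both drugs in Hep3B and Huh7 in the authors' deposited tables. DNAJC3 (p58IPK), an inhibitor of eIF2 kinases, was higher with both drugs in Hep3B (0.80) and lower in the Huh7 table labelled GW3965 (-0.36), and IMPACT, an inhibitor of GCN2, was higher with both drugs in each line (0.18 and 0.71), in the authors' deposited tables. ABCF1, which assists eIF2, was lower with both drugs in each line (-0.88 and -0.31) in the authors' deposited tables.

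Upstream of the 4E-binding proteins, the 16 genes of the mTORC1 axis gave 5 higher and 5 lower with sorafenib in Hep3B, 6 and 5 with both drugs in Hep3B, and 8 and 2 with both drugs in Huh7, in the authors' deposited tables. With both drugs, the share called of these 16 genes was near that of all expressed genes in each line (72.1% in Hep3B and 61.7% in Huh7). The 2 that rose in every table were DDIT4 and SESN2, both stress-induced inhibitors of mTORC1, at 2.73 and 2.40 with both drugs in Hep3B and 2.72 and 2.45 in Huh7, in the authors' deposited tables. AKT1S1 (PRAS40), a subunit that restrains mTORC1, was lower in the same groups (-0.77 and -0.65), in the authors' deposited tables. SESN3 was lower with both drugs in Hep3B (-1.69) and higher in Huh7 (0.98), in the authors' deposited tables.

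Partners of the cap and the poly-A tail (18 genes) gave 5 higher and 6 lower with both drugs in Hep3B and 9 and 7 in Huh7, in the authors' deposited tables. MKNK2, a kinase that phosphorylates eIF4E, rose by 0.38 with GW3965 and 0.67 with both drugs in Hep3B, by 0.68 in the Huh7 table labelled GW3965 and by 1.74 with both in Huh7, in the authors' deposited tables. PABPC1, the poly-A binding protein, rose by 0.27 in Hep3B and 0.67 in Huh7 with both drugs, and DDX3X, a helicase of scanning, fell by 0.97 and 0.37, in the authors' deposited tables. LARP1, which binds pyrimidine starts, stood at -0.02 in Hep3B with both drugs and was called at 0.16 in Huh7, in the authors' deposited tables.

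Termination and recycling factors (8 genes) gave 0 higher and 3 lower with sorafenib in Hep3B, 3 and 2 with both drugs in Hep3B, 0 and 4 in the Huh7 table labelled GW3965 and 0 and 0 with both drugs in Huh7, in the authors' deposited tables. The release factor ETF1 stood at -0.35 with sorafenib in Hep3B and at -0.33 in the Huh7 table labelled GW3965, both called, in the authors' deposited tables. Enzymes that make hypusine on eIF5A and diphthamide on eEF2 (9 genes) gave 3 higher and 0 lower with both drugs in Hep3B and 3 and 1 in Huh7, in the authors' deposited tables. DPH5, a methyltransferase of diphthamide synthesis, rose by 1.15 with sorafenib and 1.54 with both drugs in Hep3B and by 0.78 with both in Huh7, in the authors' deposited tables. Mitochondrial translation factors (9 genes) gave 3 higher and 2 lower with both drugs in Hep3B and 1 and 2 in Huh7, where MTIF2, the mitochondrial initiation factor that carries the initiator tRNA, was the one higher in Huh7 (0.58) and stood at 1.08 in Hep3B, in the authors' deposited tables.

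Other transcripts of the members gave nearly the same calls as the representatives. The authors' deposited tables held 115 transcript rows for the 70 members, of which 45 were further transcripts of 21 genes. Their call matched that of the representative in 45 of 45 rows in 5 comparisons and in 44 of 45 with sorafenib in Hep3B, and none was called in the opposite direction. The exception was EEF1E1, whose second transcript NM_001135650 was called lower at -0.25 (edgeR FDR = 0.0419) where the representative stood at -0.17 and was not called, in the authors' deposited table. Transcripts of one gene share most of their reads, so this is no independent check.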

How the data were processed

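Per the submitters' processing notes, the tool was edgeR, without a version, and the builds were hg19 and GRCh37. Aligner, counting, normalization and the edgeR model were not given in the sources used here. The authors deposited 4 values per transcript, per the file headers: the mean log2 CPM, the log2 fold change of drug over DMSO, the p-value and the FDR. Benjamini-Hochberg adjustment of the deposited p-values over the 32321 rows of a table gave the deposited FDR within 1e-09. The members and gene lists were chosen with earlier results of these data known.

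A gene was called where its representative transcript had an FDR under 0.05, and the edgeR tests were not rerun. Group levels in CPM were worked out from the mean and the fold change, the mean being read as the log2 of the linear midpoint of the groups. Under that reading the DMSO level had a median SD over the tables of a line of 0.00186 (Hep3B) and 0.00522 (Huh7) log2, apart from a constant offset, against 0.0141 and 0.0125 for a log midpoint. The DMSO level printed is the geometric mean over the tables of a line, while each drug level was taken from its own table. The offset between tables therefore enters the steps between printed levels, and the log2 fold changes are the measure of change. CPM is not corrected for length, so levels of different genes are not compared. The approximate test took as standard error the size of a log2 fold change over the normal score of its p-value, not below the median of its expression bin (20 bins), with that median where p exceeded 0.5. The 2-sided normal p-values received Benjamini-Hochberg adjustment over genes at a mean of at least 2 CPM. On simulated data for the Hep3B against Huh7 contrast (11511 genes, 20 draws) it recovered 46.6% of genes changed by 0.5 and 94.4% of those changed by 1 (log2), and 7.12% of its calls were false. The simulated errors were normal, with the standard errors that the test itself assumes, so its error model was not checked. Only 100 genes were changed by each size, whereas 44% of genes were called in the real contrast, and both figures depend on that fraction. Genes named were the kinases, eIF2, eIF2B and 4E-binding protein genes, EEF1A1, EEF1A2, EEF2 and EEF2K, up to 5 extremes in each direction per comparison, and up to 4 members per role group; other members were named after their values were seen. The start class and motif searches used RefSeq windows of 250 bases before to 50 bases after each start, matched by symbol, and DPH6, DPH7, CASTOR1 and GCN1 were read under older symbols. Alternatives are given with the limits. Python 3.11.15, pandas 2.3.3, NumPy 2.4.6, SciPy 1.17.1 and matplotlib 3.10.9 were used.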

Additional observations from a re-analysis of the deposited data

Results flagged for a closer look

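For 10 members the response to both drugs differed between Hep3B and Huh7 by the approximate test, the 5 furthest in each direction. The differences of log2 fold changes, Hep3B minus Huh7, were 1.40 for EEF1A2, 1.32 for EIF4E3, 0.76 for EIF2A, 0.71 for EEF1E1 and 0.61 for EIF2B3. On the other side stood EIF2C1 at -1.14, EIF4E2 at -0.64, EIF4EBP2 at -0.58, EIF6 at -0.47 and EIF5 at -0.34. EEF1A2 lay at only 1.01 CPM in Huh7 with DMSO, against 7.70 CPM in Hep3B, as implied by the authors' deposited tables. EIF5 rose in both lines, by 0.58 in Hep3B and 0.92 in Huh7, so the difference is one of size, while EIF2B3 was called in opposite directions in the authors' deposited tables.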

How the results depend on the processing

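At the authors' FDR under 0.01 the called members numbered 1 in Hep3B with GW3965 and 11 in the Huh7 table labelled GW3965 (2 higher and 9 lower), and the approximate test of Hep3B with both drugs against sorafenib gave 9 at an adjusted p under 0.01. With a log2 fold change of at least 0.5 in size the counts were 0 in Hep3B with GW3965, 16 with sorafenib and 26 with both drugs, and 3 in the Huh7 table labelled GW3965, 0 in the one labelled sorafenib and 25 with both. Among values of named members, 264 per setting, the FDR of 0.01 ended 17 calls and left 247 unchanged. The 247 include values called at neither threshold, so the 17 are a larger share of the calls than of the values. The calls lost were EEF2, EIF4B, EIF5B, EIF5A2, EIF2B1, EIF2B2 and EEF2K in the Huh7 table labelled GW3965, EIF2B3 and EIF5AL1 in Huh7 with both drugs, EIF4EBP1 in Hep3B with GW3965, EIF2B5, EIF4A2 and EIF4B with sorafenib in Hep3B, and EEF1D, EIF2B5, EIF2C2 and EIF2C3 with both drugs in Hep3B. Both settings call fewer genes by construction. Adjustment over representative transcripts and the transcript with the highest mean changed no call and reversed no called value. Subtraction of the expressed-gene median kept every call by construction, so it could only reverse a direction, and it reversed none among the called values. The other counts, among them those without a minimum expression, without a floor on the error and without the Argonaute, pseudogene and readthrough rows, stayed within 1.5 times. No paired analysis was possible because the tables hold comparisons of groups and no values of single libraries, and for the same reason no library could be left out and no depth, batch or outlying library could be examined. A value rests on the authors' error alone.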
